A study of Mus musculus with 2 samples.

Results

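The 48 genes described here encode the machinery of DNA replication (S phase) and of mitosis. They were chosen by name as a list, and all 48 were found by symbol among the 31053 genes counted. For description they fall into 23 replication members (licensing, nucleotide supply, the replication fork and new chromatin, cyclin E) and 25 mitotic members (kinases, cyclins and the exit machinery, and the spindle, kinetochore and mitotic chromosomes). The data are 3′ transcript counts from FACS-enriched mammary cells of adult C57BL/6 mice, 1 library for each group. The cKO library came from K8-CreERT2;miR-200c/141-flox/flox mice, in which a tamoxifen-inducible Cre under the promoter of keratin 8, a luminal keratin, can delete both copies of the miR-200c/141 locus. The Ctrl library came from miR-200c/141-flox/flox mice, which carry the same floxed alleles without the Cre. Both groups received tamoxifen at 8 to 10 weeks of age, and glands were taken 4 weeks later, while a separate label gives an age of 8 weeks. The labels do not state how many mice were pooled. Neither microRNA was among the genes counted, so the deletion itself was not checked here.

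After filtering, the cKO library held 5438 cells with a median of 13905 unique molecular identifiers (UMIs, counted RNA molecules) and the Ctrl library 3389 cells with a median of 19799. The 2 libraries shared 6 cell barcodes. Cells were assigned to 5 classes from marker genes that include none of the members, so that cells in division stay in their lineage. Hormone-sensing luminal cells, which carry the prolactin receptor gene Prlr, numbered 1381 in cKO and 571 in Ctrl, and luminal progenitor cells, with Elf5 and Csn3, 1170 and 714. Luminal cells with the marker program of both kinds numbered 1237 in cKO and 865 in Ctrl. They had the most UMIs per cell, with medians of 28949 and 48608, and whether they hold pairs of cells was not tested. Basal myoepithelial cells, with Krt5 and Krt14, numbered 982 in cKO and 1077 in Ctrl, and endothelial cells, with Pecam1 and Cdh5, 525 and 111. The classes were gated on these same markers, so the following sums are a description and no check of the classes. Basal markers summed to 22763 CPM (UMIs per 1000000 UMIs of the class) in cKO basal cells and 20175 CPM in Ctrl basal cells, against at most 340 CPM in any other class. Endothelial markers summed to 2930 CPM in cKO and 3521 CPM in Ctrl endothelial cells, against at most 42.9 CPM in the epithelial classes. Hormone-sensing markers summed to 9601 CPM in cKO and 9749 CPM in Ctrl hormone-sensing cells, and progenitor markers to 10932 and 11107 CPM in progenitor cells. Progenitor markers also summed to 309 CPM in cKO and 971 CPM in Ctrl basal cells, and to 1055 and 1937 CPM in endothelial cells. Because each group is a single library, replicates are lacking and the groups are not tested against each other. Each interval below is a 95% counting interval, which covers counting error only, and a difference between the libraries cannot be told apart from one between mice, dissociations or sorts.

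A cell that prepares to divide first loads the MCM2 to MCM7 helicase onto replication origins, makes deoxynucleotides, copies its DNA behind the PCNA clamp and packs it with new histones. It then builds cyclin A and cyclin B complexes with CDK1, condenses and aligns its chromosomes, and leaves mitosis when the anaphase-promoting complex, with CDC20 and UBE2C, marks cyclins for destruction. Replication genes are textbook targets of the E2F factors, while mitotic genes are repressed outside division by the DREAM complex through a promoter element called CHR, often beside CCAAT boxes bound by NF-Y. In the adult mammary gland most epithelial cells are not dividing at a given time, and the cells that do divide follow the estrous cycle.

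Letters of these elements were searched in the members' promoters, and 5 promoters are printed as examples of mitotic members, of replication members found mostly in a few cells or higher in cKO in every class, and of a replication member spread over many cells. RefSeq entries were matched for 48 members, of which 39 had a promoter (20 genes with 22 replication promoters and 19 with 20 mitotic ones), taken as 250 bases before to 50 after the annotated start (GRCm38.p6). The letters searched on both strands were TTTGAA and TTCGAA for CHR, TTTCCCGC, TTTGGCGC, TTTCGCGC and TTTGCCGC for E2F, and CCAAT. CHR letters stood in 80.0% of the 20 promoters of mitotic members, in 13.6% of the 22 promoters of replication members, and in 19.2% of all 32851 promoters. E2F letters stood in 40.9% of the promoters of replication members, in 5.0% of those of mitotic members, and in 2.27% of all. CCAAT stood in 90.0% of the mitotic, 63.6% of the replication and 37.4% of all promoters. These are matches of letters and not sites shown to be bound. Each stretch printed runs 140 bases, 130 before and 10 after the start, 5′ to 3′ in the direction of the gene, with matches to any of the 3 elements in capitals. Ube2c (chr2:164769799-164769938, plus strand) and Cdk1 (chr10:69352903-69353042, minus strand) are mitotic members found mostly in a few cells, with CHR and CCAAT letters. Pclaf (chr9:65890193-65890332, plus strand) and Mcm6 (chr1:128359696-128359835, minus strand) are replication members with E2F and CCAAT letters, and in Mcm6 the first E2F matches, on opposite strands, overlap and read as 1 run. Slbp (chr5:33652565-33652704, minus strand) is a replication member found in many cells, with CCAAT letters alone.
Ube2c: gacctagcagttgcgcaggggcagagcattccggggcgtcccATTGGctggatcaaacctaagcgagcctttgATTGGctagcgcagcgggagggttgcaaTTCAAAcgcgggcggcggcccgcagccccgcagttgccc
Cdk1: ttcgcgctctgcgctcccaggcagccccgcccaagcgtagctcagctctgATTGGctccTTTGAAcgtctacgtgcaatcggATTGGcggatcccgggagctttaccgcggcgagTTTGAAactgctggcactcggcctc
Pclaf: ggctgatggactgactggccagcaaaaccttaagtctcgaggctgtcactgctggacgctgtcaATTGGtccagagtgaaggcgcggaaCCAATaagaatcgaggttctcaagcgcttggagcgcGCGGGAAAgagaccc
Mcm6: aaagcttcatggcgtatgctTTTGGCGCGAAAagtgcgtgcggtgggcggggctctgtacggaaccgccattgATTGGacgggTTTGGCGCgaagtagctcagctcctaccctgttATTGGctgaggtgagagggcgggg
Slbp: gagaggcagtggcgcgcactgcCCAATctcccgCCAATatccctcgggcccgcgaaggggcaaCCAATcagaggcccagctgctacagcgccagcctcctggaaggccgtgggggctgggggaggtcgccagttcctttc

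Most cells held almost none of the members and a few held many. To compare cells of unequal depth, each cell was thinned at random to 5000 UMIs. Of 8004 cells deep enough, 4781 held 0 or 1 member, 3013 held 2 to 4, and 107 held 5 to 7. Beyond these, 37 cells held 8 to 14 members and 66 held 15 or more, up to 33 in a cell. The 103 cells with at least 8 members, 82 in cKO and 21 in Ctrl, are called member-rich here. The cut at 8 was set out beside that at 5, and reading it as a class of its own was chosen after the counts per cell had been seen.

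**Figure D1:**
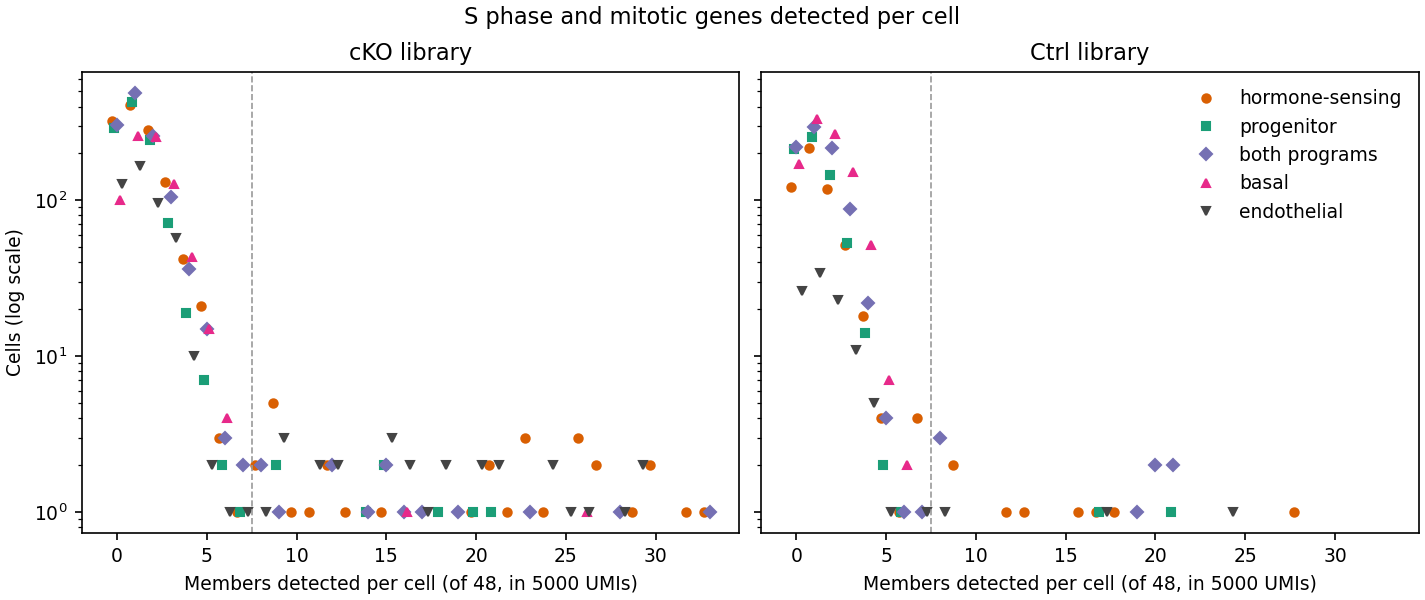
Number of cells (log scale) by the number of the 48 members detected in 5000 UMIs per cell, cKO left and Ctrl right, with a symbol per class and a dashed line between 7 and 8 members. Cells with 0 or 1 member number 2894 in cKO and 1887 in Ctrl, and the sparse tail right of the line holds 82 and 21 cells.

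Endothelial and hormone-sensing cells had the highest shares of cells with at least 5 members, and progenitor and basal cells the lowest. In hormone-sensing cells the share was 4.49% in cKO (56 of 1247 cells, 3.41 to 5.79) and 3.13% in Ctrl (17 of 544, 1.83 to 4.96), a ratio of 1.44 (0.823 to 2.64). In progenitor cells it was 1.69% in cKO (18 of 1068) and 0.729% in Ctrl (5 of 686), a ratio of 2.31 (0.827 to 7.97). Cells with both programs had 2.78% in cKO (34 of 1225) and 1.63% in Ctrl (14 of 857), a ratio of 1.70 (0.888 to 3.43). Each of these 3 luminal ratios has an interval that includes 1, so a difference was not detectable at this number of cells. Endothelial cells had 6.35% in cKO (31 of 488) and 4.81% in Ctrl (5 of 104), a ratio of 1.32 (0.509 to 4.35). Basal cells had 2.62% in cKO (21 of 802, 1.63 to 3.97) and 0.916% in Ctrl (9 of 983, 0.419 to 1.73). The basal ratio of 2.86 (1.26 to 7.09) is the one of the 5 whose counting interval excludes 1. It does not hold at a cut of 3 members, where the basal share was 23.8% in cKO and 21.6% in Ctrl, a ratio of 1.10 (0.903 to 1.35). The classes stood in the same order in both libraries, and the intervals of neighbours in that order overlap in each. Without thinning the order of the libraries turned round in every class, for example 26.6% in cKO and 50.8% in Ctrl for hormone-sensing cells, whose median depth was 13117 UMIs in cKO and 21320 UMIs in Ctrl.

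Most basal cells with at least 5 members held replication members, while most endothelial ones of cKO held both kinds. Of the 21 cKO and 9 Ctrl basal cells, 18 and 9 had no more than 2 mitotic members, and 3 and 0 had at least 3 of each kind. Of the 31 cKO and 5 Ctrl endothelial cells, 23 and 2 had at least 3 of each kind. With at least 8 members the basal share was 0.249% in cKO (2 of 802) and 0 of 983 in Ctrl, which allows a share of up to 0.305%. Member-rich cells made up 2.49% of cKO and 1.47% of Ctrl hormone-sensing cells (31 and 8 cells), and 0.749% and 0.292% of progenitor cells (8 and 2 cells). They made up 1.14% of cKO and 0.933% of Ctrl cells with both programs (14 and 8 cells), and 5.53% and 2.88% of endothelial cells (27 and 3 cells). All 4 ratios have counting intervals that include 1, the hormone-sensing one being 1.69 (0.760 to 4.26). A thinned Mki67 UMI, the proliferation marker Ki-67, was found in 17 of 1247 cKO and 6 of 544 Ctrl hormone-sensing cells, and in 1 of 802 cKO and 0 of 983 Ctrl basal cells. Free RNA was not measured.

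**Figure D2:**
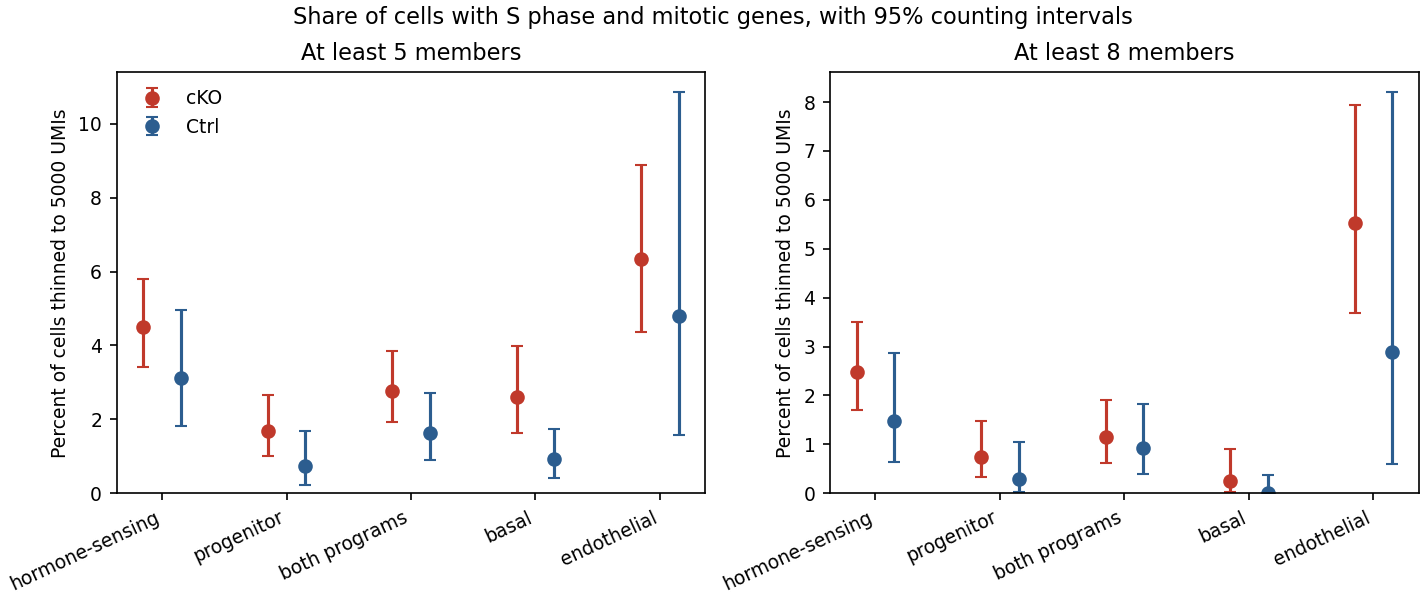
Percent of cells with at least 5 (left) and at least 8 (right) of the 48 members after thinning to 5000 UMIs, by class, cKO left of Ctrl, with 95% Clopper-Pearson intervals. The intervals of the libraries overlap in every class, narrowly in basal cells at 5 members (1.63 to 3.97 in cKO, 0.419 to 1.73 in Ctrl).

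The members differ in how far they are confined to member-rich cells, and since these cells were picked by the members, the following is a description. Over the 5 classes, the median mitotic member had 88.0% of its UMIs in member-rich cells in cKO and 66.8% in Ctrl, and the median replication member 30.6% and 16.1%. At one end, Pclaf, which binds PCNA during replication, had 90.6% in cKO and 89.8% in Ctrl, and Ccna2, cyclin A2, had 94.6% and 87.7%. Ube2c had 92.0% in cKO and 81.2% in Ctrl. At the other end, Slbp, which binds the stem-loop of histone mRNA, had 9.26% in cKO and 4.27% in Ctrl, in 3665 and 2482 cells with a UMI. Pcna had 12.7% and 5.78%, and Mcm4 16.0% and 5.48%. These members are therefore spread over many cells that hold few others. Aurka, the centrosomal Aurora kinase, and Kif11, the kinesin that separates spindle poles, were the mitotic members least confined to member-rich cells in cKO, with 35.2% in cKO and 12.2% in Ctrl for Aurka and 37.5% and 38.7% for Kif11.

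**Figure D3:**
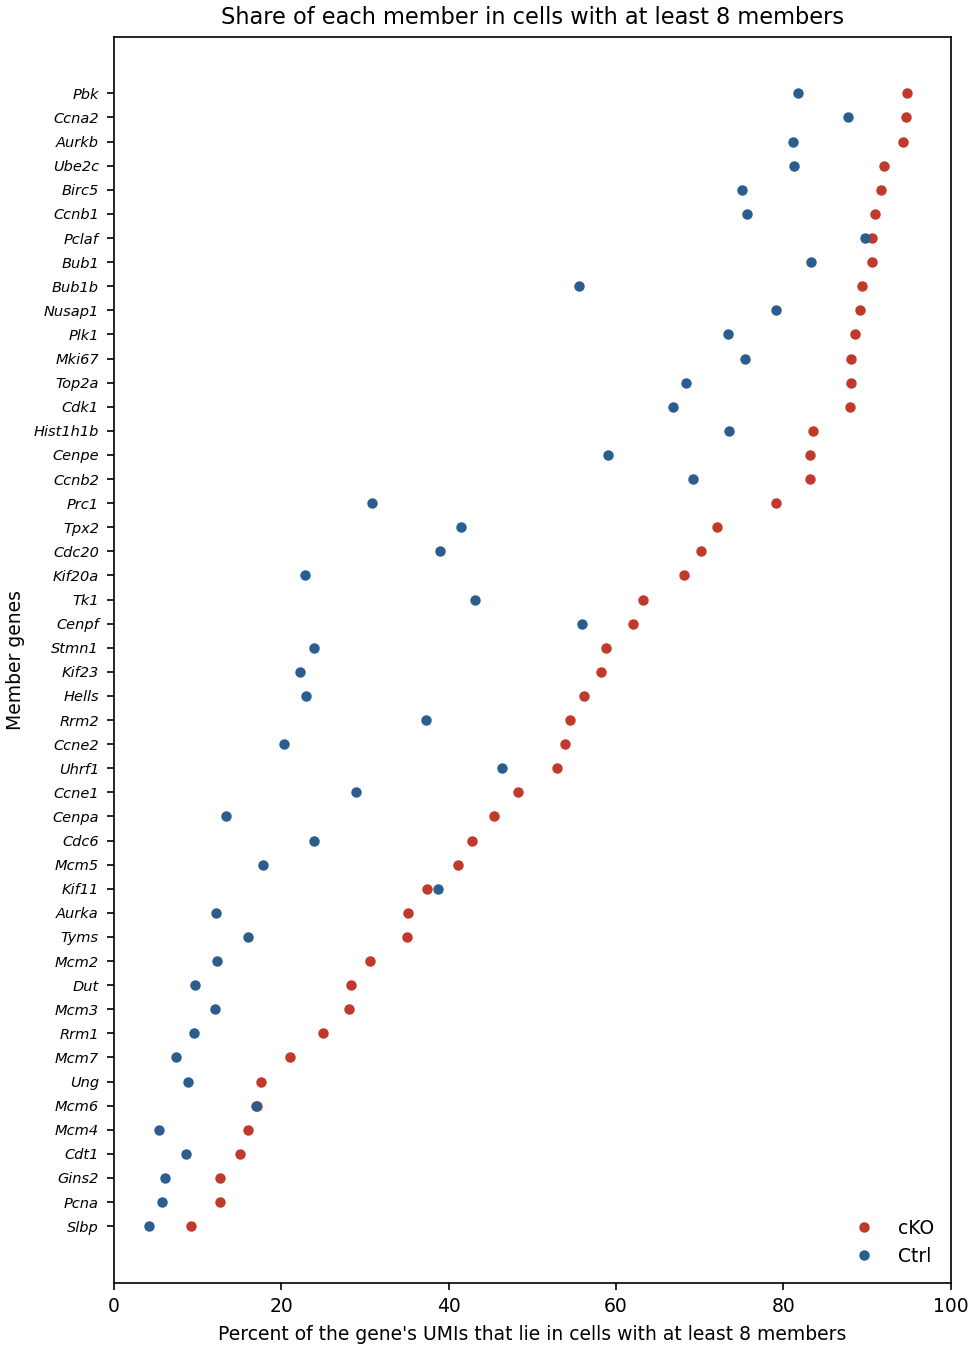
Percent of each member's UMIs, over the 5 classes, that lie in cells with at least 8 members, cKO red and Ctrl blue, genes ordered by the cKO value. Values run from 9.26% (Slbp) to 94.8% (Pbk) in cKO and from 4.27% (Slbp) to 89.8% (Pclaf) in Ctrl.

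Summed over all cells of a class, the members were higher in cKO than in Ctrl in most classes, more so for the mitotic members of endothelial cells. Class values are given below in the order hormone-sensing, progenitor, both programs, basal and endothelial. The replication members summed to 416, 256, 285, 396 and 399 CPM in cKO, against 326, 219, 239, 310 and 286 CPM in Ctrl, ratios of 1.28, 1.17, 1.19, 1.28 and 1.40. The mitotic members summed to 252, 111, 121, 93.2 and 452 CPM in cKO, against 195, 81.1, 120, 59.5 and 183 CPM in Ctrl, ratios of 1.29, 1.37, 1.01, 1.57 and 2.46. The interval of the mitotic ratio runs from 1.23 to 1.35 in hormone-sensing cells, from 0.968 to 1.05 in cells with both programs and from 2.25 to 2.71 in endothelial cells. A few cells set several of these sums. Without the 5 cells of each library with most mitotic UMIs, the mitotic ratio was 1.64 in hormone-sensing, 0.869 in progenitor, 0.715 in basal and 5.16 in endothelial cells. Leaving out 5 cells weighs unequally on the libraries, since member-rich hormone-sensing cells numbered 31 in cKO and 8 in Ctrl, and endothelial ones 27 and 3. The higher ratios follow in part from that construction. With each cell weighing the same it was 0.957 in progenitor, 0.928 in basal and 1.10 in endothelial cells, and the endothelial replication ratio was 0.888.

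Single members were set against the background of every gene that reached 20 UMIs in a class over both libraries. In hormone-sensing cells 22 of 48 members were at least 1.5-fold higher in cKO and 0 at least 1.5-fold lower, beside 14.8% and 17.6% of 12500 genes. In progenitor cells 26 of the 44 members with 20 UMIs were higher and 3 lower, beside 8.05% and 12.5% of 12105 genes. In cells with both programs 14 of 48 were higher and 1 lower, beside 11.2% and 17.5% of 13803 genes. In basal cells 18 of the 34 with 20 UMIs were higher and 0 lower, beside 9.69% and 8.81% of 11291 genes. In endothelial cells 36 of 48 were higher and 2 lower, beside 19.6% and 9.49% of 10928 genes. The median log2 ratio of the members counted was 0.57, 0.67, 0.27, 0.71 and 1.2, beside -0.07, -0.10, -0.13, 0.03 and 0.09 for all genes. Some members reached 20 UMIs through cKO alone, in hormone-sensing, progenitor, basal and endothelial cells. In hormone-sensing cells Ccne2 had 73 UMIs in cKO and 10 in Ctrl, and Plk1 35 and 9. In endothelial cells, where cKO held 12163483 UMIs and Ctrl 2632614, Plk1 had 58 UMIs in cKO and 0 in Ctrl, Kif20a 27 and 1, and Bub1 32 and 3. The counts and medians over members with 20 UMIs are therefore no support of a direction. Without the member-rich cells the members at least 1.5-fold higher and lower numbered 9 and 10 of 39 in hormone-sensing, 5 and 5 of 29 in progenitor, and 7 and 7 of 43 in cells with both programs. They numbered 5 and 2 of 23 in basal and 6 and 4 of 27 in endothelial cells. The share of all genes was not counted without the member-rich cells, so these numbers have no background beside them.

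**Figure D4:**
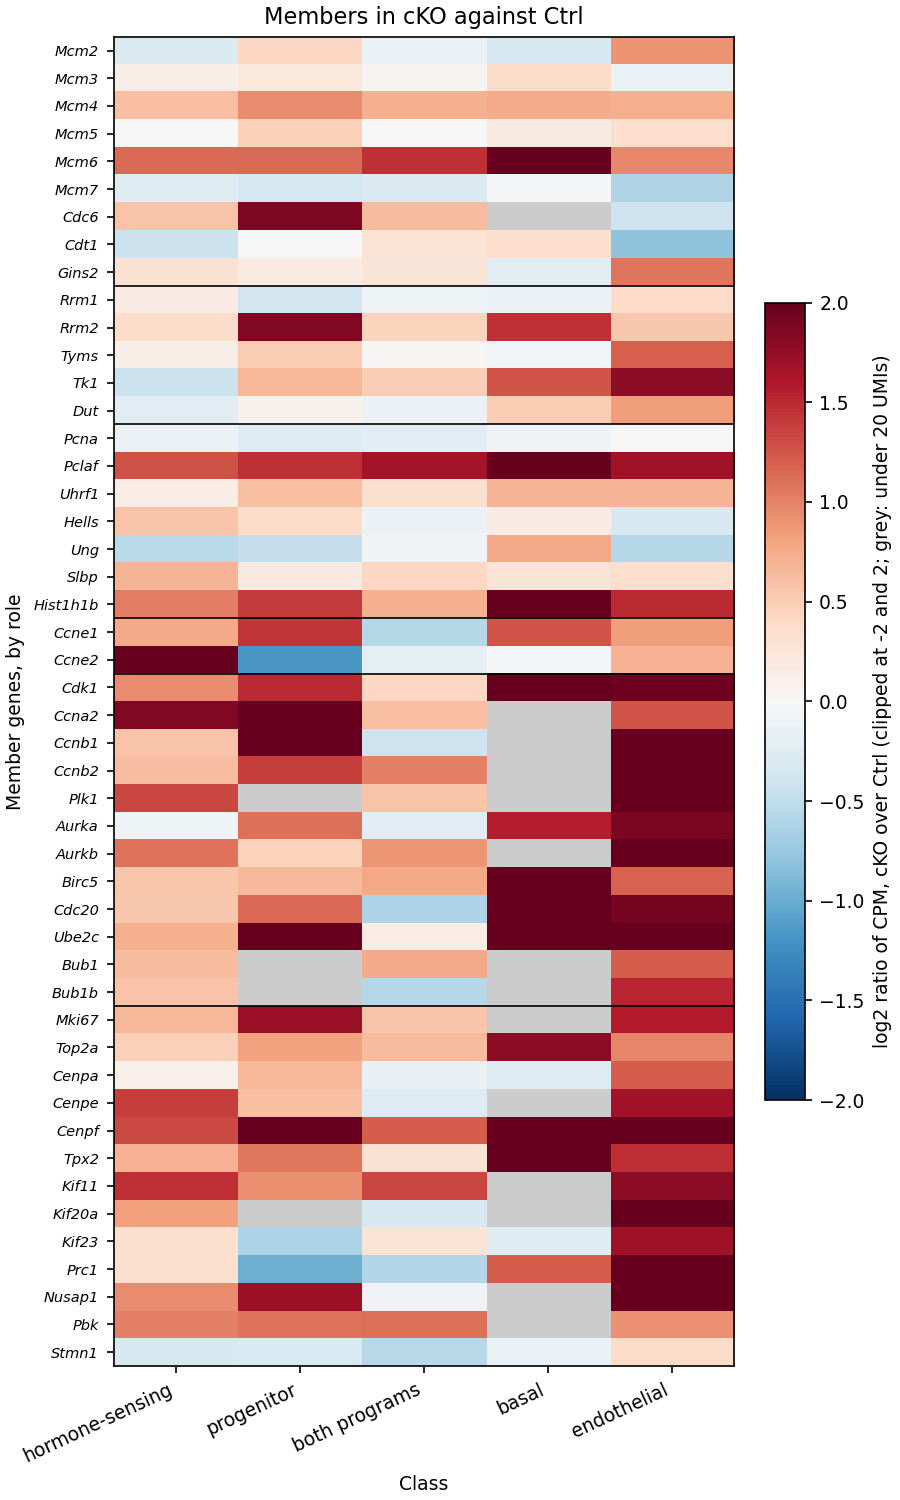
Log2 ratio of CPM, cKO over Ctrl, for the 48 members (rows, grouped by role) in the 5 classes (columns), clipped at -2 and 2, grey where a gene had fewer than 20 UMIs over both libraries. Mcm4, Mcm6, Pclaf, Hist1h1b and Cenpf are red in every column, and 24 of 25 mitotic members are at least 1.5-fold higher in the endothelial column.

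Of the 34 members with at least 20 UMIs in each of the 5 classes, 5 were at least 1.5-fold higher in cKO in all 5, and 14 were higher by any amount in all 5. Among these 5 are the helicase subunits Mcm4 and Mcm6, Pclaf, the linker histone gene Hist1h1b and Cenpf, a kinetochore protein of late division. The share of all genes that pass the same cuts in every class was not counted. In basal cells Pclaf (36 UMIs in cKO and 5 in Ctrl), Hist1h1b (48 and 9) and Cenpf (18 and 5) rest on few UMIs. Basal cells with fewer than 8 members and at least 5000 UMIs had 5 Hist1h1b UMIs in cKO and 9 in Ctrl, a ratio of 0.951. Mcm7 was the one member of the 34 below Ctrl in all 5 classes.

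Among the licensing genes the 6 MCM subunits, which work as 1 ring, did not move together. Mcm6 stood at 31.6, 20.04, 22.3, 25.7 and 14.1 CPM in cKO, against 14.5, 9.12, 8.13, 6.34 and 7.22 CPM in Ctrl. Mcm4 stood at 24.6, 12.3, 17.2, 18.4 and 10.7 CPM in cKO, against 16.1, 6.39, 10.5, 11.0 and 6.46 CPM in Ctrl. Both were higher in cKO in every class, with an interval that includes a ratio of 1 only for Mcm4 in endothelial cells. Mcm7 stood at 12.0, 8.91, 9.19, 22.0 and 10.0 CPM in cKO, against 14.3, 11.3, 11.2, 22.7 and 15.2 CPM in Ctrl, ratios of 0.841, 0.787, 0.822, 0.971 and 0.660. Mcm2, Mcm3 and Mcm5 had ratios of 0.815, 1.09 and 1.01 in hormone-sensing cells and 0.918, 1.04 and 1.0 in cells with both programs. In progenitor cells these were 1.33, 1.16 and 1.39, and in endothelial cells 1.86, 0.907 and 1.28. Basal cells had ratios of 0.80, 1.30 and 1.13, of which the first rests on 7 UMIs in cKO and 14 in Ctrl. Cdt1, which loads the helicase with Cdc6, was among the lowest ratios of 2 classes, at 4.88 CPM in cKO and 6.57 in Ctrl hormone-sensing cells, and at 4.36 and 7.60 CPM in endothelial cells. Gins2, a subunit of the active helicase complex, was among the lowest basal ratios, at 4.26 CPM in cKO and 4.93 CPM in Ctrl.

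The difference in Mcm6 lay in cells with few members as well. In cells with fewer than 8 members and at least 5000 UMIs, Mcm6 stood at 23.9, 18.6, 20.3, 25.7 and 8.26 CPM in cKO, against 8.56, 8.63, 7.32, 6.40 and 4.70 CPM in Ctrl. The ratios were 2.79 (2.27 to 3.46), 2.15 (1.77 to 2.63), 2.78 (2.44 to 3.17), 4.02 (3.08 to 5.30) and 1.76 (0.959 to 3.53). Mcm4 had ratios of 1.31, 1.94, 1.55, 1.70 and 1.38 in the same cells. Mcm7 went the other way, at 0.658, 0.681, 0.750, 0.950 and 0.590, and its interval excludes 1 in all but the basal class. These cells were set apart by their count of members, so the sums over them are a description. Summed over all members, the ratio in these cells was 0.997, 0.973, 1.01, 1.13 and 1.04. It was 1.12, 1.08, 1.12, 1.2 and 1.09 for the replication members, and 0.682, 0.625, 0.682, 0.741 and 0.924 for the mitotic members. Stmn1, a microtubule-destabilising protein found in 1026 cKO and 1487 Ctrl cells, gave much of the lower mitotic sum. It stood at 16.6, 17.3, 15.5, 28.6 and 31.2 CPM in cKO, against 38.7, 33.5, 34.4, 41.5 and 42.7 CPM in Ctrl. Without Stmn1 the mitotic ratio was 0.877, 0.758, 0.874, 0.864 and 1.12. Pcna, at 28.9, 35.6, 32.4, 49.8 and 32.4 CPM in cKO and 33.0, 42.7, 38.9, 52.1 and 32.9 CPM in Ctrl, was lower in the 3 luminal classes of cKO, with ratios of 0.878, 0.835 and 0.833.

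**Figure D5:**
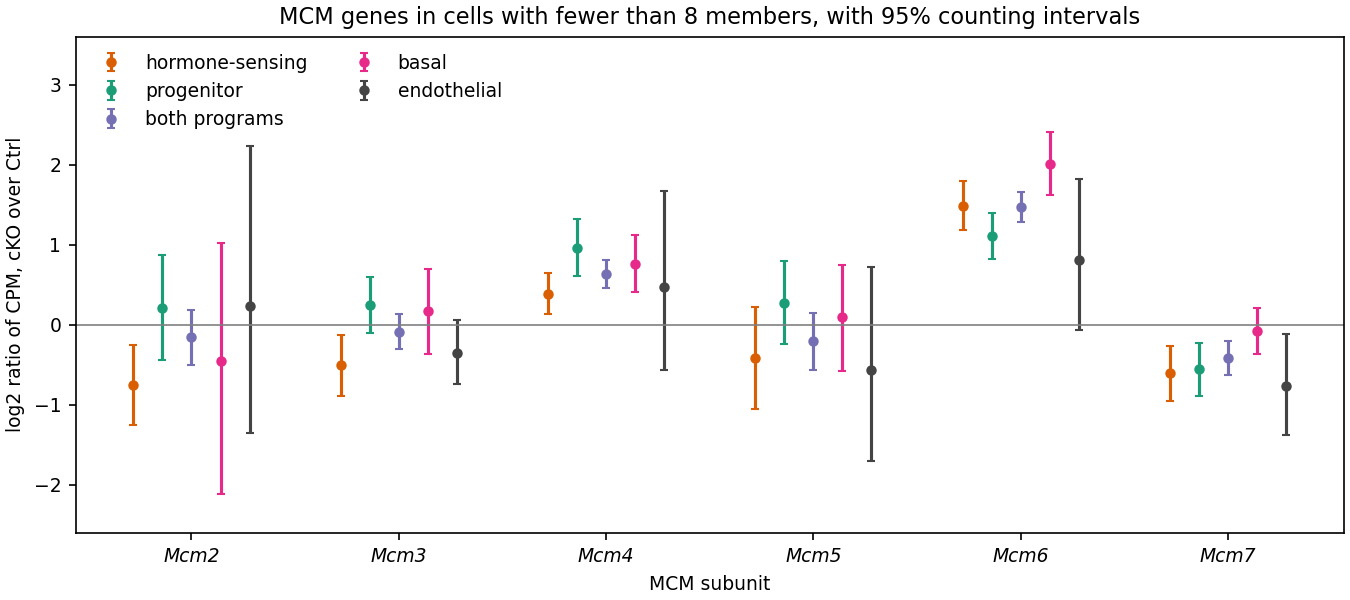
Log2 ratio of CPM, cKO over Ctrl, of the 6 MCM subunit genes in cells with fewer than 8 members, by class, with 95% counting intervals and a line at 0. Mcm6 lies between 0.82 and 2.01 and Mcm4 between 0.39 and 0.96 in the 5 classes, while Mcm7 lies between -0.76 and -0.07.

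Among the genes of nucleotide supply, Rrm2, the S phase subunit of ribonucleotide reductase, differed from its partner Rrm1. Rrm2 stood at 30.1, 3.16, 10.5, 7.76 and 12.7 CPM in cKO, against 23.3, 0.871, 7.70, 2.82 and 8.74 CPM in Ctrl. It was higher in cKO in all 5 classes, with an interval that includes a ratio of 1 in endothelial cells only. Thinned cells with a Rrm2 UMI were 6.90%, 0.468%, 3.59%, 2.24% and 2.05% in cKO, against 4.41%, 0.583%, 3.15%, 1.42% and 2.88% in Ctrl. This share was lower in cKO in progenitor and endothelial cells. Hormone-sensing cells had the highest Rrm2 level in both libraries. Rrm1 had ratios of 1.11, 0.776, 0.932, 0.926 and 1.30, and each interval includes 1. Tk1, thymidine kinase, was among the lowest hormone-sensing ratios, at 6.82 CPM in cKO and 9.20 CPM in Ctrl, and had 6.58 CPM in cKO and 1.90 CPM in Ctrl endothelial cells. Tyms, thymidylate synthase, had 46.3 CPM in cKO and 20.1 CPM in Ctrl endothelial cells, a ratio of 2.30.

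At the fork and on new chromatin, Pclaf stood at 21.4, 8.14, 8.61, 4.51 and 37.7 CPM in cKO, against 8.84, 2.96, 2.70, 0.391 and 11.8 CPM in Ctrl, ratios of 2.42, 2.75, 3.18, 11.5 and 3.20. The basal ratio rests on 36 UMIs in cKO and 5 in Ctrl. Hist1h1b stood at 23.9, 8.25, 6.11, 6.01 and 21.3 CPM in cKO, against 11.8, 3.14, 3.73, 0.704 and 7.60 CPM in Ctrl. Histone transcripts mostly lack a poly(A) tail and have close paralogs, so its counts are uncertain. Pcna over all cells had ratios of 0.921, 0.834, 0.857, 0.950 and 1.0, unlike Pclaf. Slbp, the member with most UMIs, had 93.0, 79.7, 82.6, 143 and 89.2 CPM in cKO, against 57.8, 70.7, 62.3, 119 and 70.7 CPM in Ctrl. Ung, which removes uracil from DNA, was among the lowest ratios in hormone-sensing cells, 0.685, and progenitor cells, 0.715. Hells, a chromatin remodeller, had 6.08 CPM in cKO and 7.60 CPM in Ctrl endothelial cells.

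The summed level of cyclin E, the CDK2 partner that starts S phase, went in opposite directions in 2 luminal classes. Ccne1 and Ccne2 together had 8.15 CPM in cKO and 3.50 CPM in Ctrl hormone-sensing cells, a ratio of 2.33 (1.68 to 3.27). In cells with both programs they had 2.27 CPM in cKO and 3.12 CPM in Ctrl, a ratio of 0.729 (0.556 to 0.954). The share of thinned cells with a UMI was not lower in cKO there. It was 0.653% in cKO and 0.583% in Ctrl for Ccne1, and 0.245% and 0.233% for Ccne2. In hormone-sensing cells it was 1.76% and 1.10% for Ccne1, and 0.962% and 0.184% for Ccne2. Ccne2 was the highest hormone-sensing ratio, at 3.46 CPM in cKO (73 UMIs) and 0.730 CPM in Ctrl (10 UMIs). Ccne1 was among the lowest ratios of cells with both programs, 0.675.

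The kinases, cyclins and exit machinery of mitosis were higher in cKO in every class as a sum, though not gene by gene. They summed to 83.8, 34.9, 37.0, 25.7 and 187 CPM in cKO, against 54.8, 10.9, 32.7, 3.21 and 50.1 CPM in Ctrl, ratios of 1.53, 3.22, 1.13, 8.00 and 3.72. Cdk1, the mitotic kinase, stood at 16.4, 5.37, 5.99, 4.51 and 32.3 CPM in cKO, against 8.54, 1.92, 4.49, 0.783 and 8.36 CPM in Ctrl. Ccnb1, cyclin B1, had 3.70, 1.77, 1.30 and 6.41 CPM in cKO, against 2.48, 0.232, 1.72 and 1.14 CPM in Ctrl, in the classes other than basal, where it had under 20 UMIs. The basal ratio of 8.00 rests on 205 UMIs in cKO and 41 in Ctrl. In cKO the 2 member-rich cells held 55.4% of the mitotic UMIs of basal cells with at least 5000 UMIs. Member-rich progenitor cells, 8 in cKO and 2 in Ctrl, held 67.1% and 26.2% of those of progenitor cells. Ube2c was the highest basal ratio, with 63 and 4 UMIs, and the highest progenitor one, at 12.4 CPM in cKO and 1.74 CPM in Ctrl. The share of thinned progenitor cells with a Ube2c UMI was not higher in cKO, at 1.22% against 1.31% in Ctrl. In endothelial cells Plk1, the Polo-like kinase, had 58 UMIs in cKO and 0 in Ctrl, at least 4.18-fold higher against a floor of 3 UMIs in the Ctrl class. Aurkb, the kinase of the chromosomal passenger complex, had 68 UMIs in cKO and 1 in Ctrl endothelial cells, a ratio of 14.7 with a log2 interval of 1.35 to 9.20. Ccna2 was among the highest hormone-sensing ratios, at 2.89 CPM in cKO and 0.803 CPM in Ctrl. Cdc20 went the other way in cells with both programs, at 2.64 CPM in cKO and 4.05 CPM in Ctrl. Ccnb1, Aurka and Bub1b had ratios of 0.752, 0.864 and 0.673 there, each with an interval that includes 1, unlike Cdc20. Bub1b rests on 9 UMIs in cKO and 15 in Ctrl. In hormone-sensing cells Aurka had a ratio of 0.939.

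Genes of the spindle, kinetochore and mitotic chromosomes summed to ratios of 1.2, 1.08, 0.959, 1.2 and 1.99. Stmn1 weighed much in these sums, and the other 12 genes summed to ratios of 1.57, 1.46, 1.22, 2.04 and 2.93. Mki67 had 8.53, 3.27, 3.18 and 16.0 CPM in cKO, against 5.40, 0.987, 2.14 and 5.32 CPM in Ctrl, in the classes other than basal. Thinned cells with a Mki67 UMI were 1.36%, 0.375%, 0.571% and 2.87% in cKO, against 1.10%, 0.146%, 1.17% and 2.88% in Ctrl. By this share Mki67 was not higher in cKO in cells with both programs or in endothelial cells. Basal cells had 16 Mki67 UMIs in cKO and 0 in Ctrl, at least 8.53-fold higher against a floor of 3 UMIs in the Ctrl class. In basal cells with fewer than 8 members and at least 5000 UMIs, Mki67 had 2 UMIs in cKO and 0 in Ctrl. Top2a, the topoisomerase that untangles chromosomes, had 16.7, 5.59, 7.70, 3.51 and 27.5 CPM in cKO, against 12.0, 3.19, 4.95, 1.02 and 14.1 CPM in Ctrl. Thinned cells with a Top2a UMI were 2.25%, 0.749%, 1.14%, 0.249% and 4.71% in cKO, against 1.47%, 0.729%, 1.87%, 0.610% and 1.92% in Ctrl. Cenpf had 12.2, 7.03, 7.65, 2.25 and 13.6 CPM in cKO, against 4.89, 1.74, 3.31, 0.391 and 1.90 CPM in Ctrl. Kif11 was among the highest ratios in hormone-sensing cells, 2.74, and in cells with both programs, 2.52. Prc1, which bundles microtubules in the midzone, was the lowest progenitor ratio, at 5.54 CPM in cKO and 10.9 CPM in Ctrl, and had a ratio of 0.668 in cells with both programs, but 2.32 in basal and 6.41 in endothelial cells. Kif23, a kinesin of the midzone, was among the lowest ratios of progenitor cells, 0.652, and basal cells, 0.847, as was Cenpa, the centromeric histone, in basal cells, 0.838. Stmn1 over all cells had 54.5, 33.3, 29.2, 37.9 and 97.6 CPM in cKO, against 68.3, 41.2, 42.7, 41.8 and 76.0 CPM in Ctrl.

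Among the 27 member-rich endothelial cells of cKO, 19 carried the Glycam1 program, as did 301 of all 488 thinned endothelial cells of cKO. Ctrl had 3 member-rich endothelial cells in all, too few to compare kinds. A sub-gate added after the data were seen split endothelial cells by the program of Glycam1, a mucin-like ligand of high endothelial venules. This gave 311 cKO and 48 Ctrl cells with the program, 86 and 7 with lymphatic markers, and 128 and 56 with neither. Since 48 cells are under the minimum of 50, the Glycam1 cells of the libraries are given side by side with no ratio. Among them 19 of 301 thinned cells were member-rich in cKO (6.31%, 3.84 to 9.68) and 0 of 47 in Ctrl, which allows a share of up to 6.38%, so a difference in this share was not detectable. Their mitotic members summed to 379 CPM in cKO (3516 UMIs) and 32.3 CPM in Ctrl (53 UMIs). The 3 member-rich endothelial cells of Ctrl were 1 with lymphatic markers and 2 with neither. Those of cKO were 5 of 73 thinned cells with lymphatic markers and 3 of 114 with neither, beside the 19 of 301. Without the Glycam1 cells, endothelial cells with at least 5 members were 5.88% in cKO and 8.77% in Ctrl, a ratio of 0.671. The mitotic ratio was then 1.59 and the replication ratio 1.08, against 2.46 and 1.40 with them. Glycam1 itself stood at 76753 CPM in the member-rich endothelial cells of cKO. It stood at 32.7 CPM in the 3 of Ctrl, none of which passed the Glycam1 gate, so this contrast restates the gate. Over all endothelial cells Glycam1 stood at 114989 CPM in cKO and 121736 CPM in Ctrl. Of the 27 member-rich cKO endothelial cells, 2 also passed the gate of a second lineage.

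Member-rich hormone-sensing cells were gated on the markers of their class, so the presence of these markers is no finding, and their levels are a description. The prolactin receptor gene Prlr was found in 100% of the 31 cKO and of the 8 Ctrl cells, at 796 CPM against 1242 CPM in the other hormone-sensing cells of cKO, and at 689 CPM against 1190 CPM in those of Ctrl, lower in the member-rich cells of both libraries. Pgr, the progesterone receptor gene, was found in 80.6% of the cKO and 87.5% of the Ctrl member-rich cells, and Esr1, the estrogen receptor gene, in 54.8% and 50%. Elf5, a progenitor factor, had 4 UMIs in the cKO cells and 0 in the Ctrl cells, and Krt5 had 0 in both. The member-rich cells were deeper than the rest, with medians of 24482 against 13546.5 UMIs in cKO and 47799.5 against 21795 UMIs in Ctrl. Genes of the G1 to S switch outside the list also differed. E2f1, a factor that turns on replication genes, had 50.2 CPM in member-rich and 0.506 CPM in other cKO cells, a log2 ratio of 6.63 (5.62 to 7.79), and 28.9 against 0.682 CPM in Ctrl, 5.41 (4.04 to 6.83). Rbl1, the pocket protein p107, had 24.0 against 2.68 CPM in cKO and 16.9 against 4.17 CPM in Ctrl. Cdk4, the partner of D cyclins, had 239 against 89.6 CPM in cKO and 236 against 105 CPM in Ctrl. Ccnd1, cyclin D1, had 118 against 93.5 CPM in cKO, a log2 ratio of 0.33 (0.03 to 0.62), and 62.6 against 95.3 CPM in Ctrl, a log2 ratio of -0.61 (-1.23 to -0.05). The CDK inhibitor gene Cdkn2c had 22.8 against 3.74 CPM in cKO and 12.0 against 3.94 CPM in Ctrl, with an interval that includes 0 on the log2 scale in Ctrl. The 8 Ctrl cells limit these values.

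Of the other pathway lists, chosen by function, those of replication and mitotic genes counted more genes higher than lower in cKO endothelial cells. In the epithelial classes genes of these lists went both ways. The list of other replication genes holds 38. Of the 36, 31, 36, 23 and 34 with at least 20 UMIs in hormone-sensing, progenitor, both-program, basal and endothelial cells, 7, 4, 3, 5 and 21 were at least 1.5-fold higher in cKO and 5, 4, 4, 1 and 0 lower. Over all genes tested, 14.8%, 8.05%, 11.2%, 9.69% and 19.6% were higher and 17.6%, 12.5%, 17.5%, 8.81% and 9.49% lower, which is the background for all of these lists. The list of other mitotic genes holds 45. Of the 41, 33, 42, 17 and 39 with at least 20 UMIs in the same classes, 14, 12, 8, 6 and 31 were higher and 5, 3, 5, 2 and 0 lower. In endothelial cells genes can reach 20 UMIs through cKO alone, as Ckap2l did with 53 UMIs in cKO and 1 in Ctrl. The counts of these lists are therefore no support of a direction. Mad2l1, a spindle checkpoint gene, had 124 CPM in cKO and 27.0 CPM in Ctrl hormone-sensing cells, and 71.8 and 14.4 CPM in cells with both programs. It lay outside the member-rich cells as well, at 124 CPM in cKO and 25.1 CPM in Ctrl in hormone-sensing cells with fewer than 8 members. Cenpm, a kinetochore gene, had 10.7 CPM in cKO and 39.9 CPM in Ctrl hormone-sensing cells, and 4.38 and 25.8 CPM in cells with both programs. Among the histone genes Hist1h1c, a linker histone, had 108 CPM in cKO and 274 CPM in Ctrl hormone-sensing cells, against 12.5 and 5.99 CPM for Hist1h2ap, a core histone with near-identical copies. Of the 13 pocket protein and DREAM genes, 1 was higher and 0 lower in hormone-sensing cells, namely Rb1, at 12.1 CPM in cKO and 7.59 CPM in Ctrl. In endothelial cells 2 were higher, Lin9 among them, at 8.14 CPM in cKO and 3.80 CPM in Ctrl. Of the 8 CDK inhibitor genes, 7 had at least 20 UMIs in endothelial cells, of which 2 were higher and 2 lower. Cdkn1c had 7.49 CPM in cKO and 3.94 CPM in Ctrl hormone-sensing cells, but 6.25 and 15.6 CPM in endothelial cells. Cdkn1b, p27, had 21.4 CPM in cKO and 35.2 CPM in Ctrl basal cells.

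Marker sums of other cell types differed between the libraries, in both directions. The 4 venule markers, Glycam1 above all, summed to 310, 560, 135 and 453 CPM in cKO and 31.1, 29.8, 25.5 and 28.7 CPM in Ctrl in the 4 epithelial classes. The 4 general leukocyte markers summed to at most 0.948 CPM in cKO and 1.41 CPM in Ctrl in those classes, and to 26.6 CPM in cKO and 18.2 CPM in Ctrl endothelial cells. Myeloid markers summed to 39.5 CPM in cKO and 6.84 CPM in Ctrl endothelial cells. Fibroblast markers summed to 306, 20.2, 222 and 81.1 CPM in cKO and 429, 10.2, 231 and 191 CPM in Ctrl in the 4 epithelial classes. Which cells these transcripts came from was not tested. The part of RNA from other cells in the members' values was not tested either.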

How the data were processed

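The authors deposited 10x 3′ UMI counts per gene and cell barcode for 1 library per group. The submitters' processing notes name Cell Ranger 2 and the build mm10, while the file header gives software version 3.0.0, and the labels name v2 chemistry. Cells with at least 500 genes and at most 10% mitochondrial UMIs were kept (5493 cKO and 3416 Ctrl), and 55 and 27 doublets that Scrublet called within each library (0.8% expected for each 1000 cells) were removed. The caller marked 1% and 0.79% of cells, and cells with markers of a second lineage stayed in, except in an alternative. Classes came from gates on the mean log-normalized marker level (scanpy 1.11.5, 10000 UMIs per cell), and 143 cKO and 51 Ctrl cells passed none. CPM are UMIs per 1000000 UMIs of the class. Intervals at 95% are exact Poisson for levels, Clopper-Pearson for shares and conditional binomial for ratios (SciPy 1.17.1). A count of 0 was given a floor of 3 UMIs or cells. Cells were thinned to 5000 UMIs, and shallower cells left out of shares numbered 134 in cKO and 27 in Ctrl for hormone-sensing, 102 and 28 for progenitor, 12 and 8 for both programs, 180 and 94 for basal and 37 and 7 for endothelial cells. No test compares the groups. Levels are given per member and not compared between genes, although 3′ counts do not scale with gene length. Besides the fixed set, named genes were the 3 members with the highest and the 3 with the lowest ratio per class among those with at least 50 UMIs, and up to 2 genes each way of the other lists. The statistics were checked on simulated counts. The members and lists were chosen with earlier results of these data known. Alternatives tried were edgeR 4.0.16 TMM factors, equal weight per cell, other thinning, cuts, minimum counts, gates and cell filters, and leaving out cells with most members.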

Additional observations from a re-analysis of the deposited data

Results flagged for a closer look

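The summed level of cyclin E (Ccne1 and Ccne2) differed in direction between 2 luminal classes. It was 2.33 times as high in cKO as in Ctrl in hormone-sensing cells (172 UMIs in cKO and 48 in Ctrl), and 0.729 times in cells with both programs (93 UMIs in cKO and 143 in Ctrl). The counting intervals, 1.68 to 3.27 and 0.556 to 0.954, lie on opposite sides of 1. The share of thinned cells with a UMI was not lower in cKO in cells with both programs. It was 0.653% in cKO and 0.583% in Ctrl for Ccne1, and 0.245% and 0.233% for Ccne2. The difference between the classes was not tested, since each group has 1 library.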

How the results depend on the processing

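No paired analysis was possible because each group has 1 library and no result comes from a test. Of 48 alternatives for the share of cells with at least 5 members, 43 gave a ratio inside the counting interval of the main setting. Only the basal interval excludes 1, so in the other classes a ratio on the other side of 1 can lie inside. That count is therefore no support of a direction. Without thinning the ratio was 0.525 in hormone-sensing, 0.493 in progenitor, 0.687 in both-program and 0.574 in basal cells, and with at least 3 members it was 1.10 in basal cells. Basal cells gave no ratio with at least 8 members, with at least 3 mitotic members or after thinning to 2000 UMIs, because Ctrl was at 0. The replication sum with TMM was 1.33 in hormone-sensing, 1.24 in progenitor and 1.28 in both-program cells. With equal weight per cell it was 1.08 in progenitor, 1.15 in both-program and 0.888 in endothelial cells. Without the 5 cells with most UMIs of the set it was 1.43 in hormone-sensing, 1.09 in progenitor, 1.2 in basal and 1.62 in endothelial cells. With stricter gates it was 1.14 in both-program and 1.26 in endothelial cells. The mitotic sum with TMM was 1.08 in both-program cells. With equal weight per cell it was 0.957 in progenitor, 0.861 in both-program, 0.928 in basal and 1.10 in endothelial cells. Without the 5 cells it was 1.64, 0.869, 0.896, 0.715 and 5.16 in the 5 classes, and the higher ratios follow in part from taking equal numbers of cells from libraries with unequal numbers of member-rich cells. With stricter gates it was 1.48 in progenitor, 0.818 in both-program and 2.13 in endothelial cells. With at least 1000 genes and at most 5% mitochondrial UMIs it was 1.23 in hormone-sensing cells, and without cells of a second lineage 1.13 in progenitor cells. Members at least 2-fold higher numbered 11 in hormone-sensing and 6 in both-program cells, and at least 2-fold lower 1 in progenitor, 0 in both-program and 0 in endothelial cells. Without the 5 cells with most members' UMIs, those higher numbered 10 in progenitor and 5 in basal cells, and those lower 5 in both-program, 4 in basal and 1 in endothelial cells. With stricter gates 8 were higher and 8 lower in both-program cells and 1 lower in hormone-sensing cells, as with the stricter cell filter. With TMM 0 were lower in both-program cells, and with Scrublet calls kept 2. Basal cells had 7 members higher with a minimum of 50 UMIs and 31 with none. Chosen after seeing the data were another draw of the thinning, leaving out member-rich cells, and leaving out Glycam1 cells. Without member-rich cells, shallower cells kept, the replication sum was 1.11, 1.08, 1.12, 1.2 and 1.08 and the mitotic sum 0.682, 0.626, 0.681, 0.740 and 0.896 in the 5 classes. The members higher were then 9, 5, 7, 5 and 6 and those lower 10, 5, 7, 2 and 4. For the counts of members higher and lower, the share of all genes was counted in the main setting only. Without Glycam1 cells the endothelial replication sum was 1.08 and the mitotic sum 1.59. The cause of these changes was not tested. Few member-rich cells, 8 in Ctrl hormone-sensing and 3 in Ctrl endothelial cells, limit every share.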

Other observations

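Genes outside all lists that stood higher in cells with at least 5 members than in cells with at most 1, in the same class and library, were named by the 10 highest ratios per class. H2afz, the replication-independent histone H2A.Z, was among them in all 5 classes, at 2298 against 393 CPM in cKO and 1541 against 283 CPM in Ctrl hormone-sensing cells. In endothelial cells it stood at 3301 against 951 CPM in cKO and 2665 against 958 CPM in Ctrl. Tuba1b, an alpha-tubulin, was among them in every class but basal, at 425 against 43.4 CPM in cKO and 484 against 92.7 CPM in Ctrl hormone-sensing cells. H2afx, the histone H2A.X, had 223 against 21.6 CPM in cKO and 192 against 30.9 CPM in Ctrl hormone-sensing cells. In basal cells the differences were smaller, with H2afz at 2011 against 1089 CPM in cKO and 1351 against 969 CPM in Ctrl. Among thinned cells in none of the 5 classes, 1 of 66 in cKO and 1 of 36 in Ctrl held at least 8 members.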
